A study of Homo sapiens with 8 samples.

Results

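The expression of 10 hypoxia pathway genes was followed across single-cell RNA libraries of drug-selected breast cancer cells, namely HIF1A, EPAS1, EGLN3, VEGFA, ADM, STC1, BNIP3, PDK1, NDRG1 and P4HA1. They were taken by name from the deposited table of 18955 genes. All 10 had a row, and all 10 passed the filter on low counts that left 9288 genes for testing.

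Cells sense oxygen through prolyl hydroxylases of the EGLN family, which mark the alpha subunits of the hypoxia-inducible factor (HIF) for degradation by the VHL ubiquitin ligase. When oxygen is short, HIF1A and EPAS1 (also called HIF-2 alpha) persist, pair with ARNT and bind the core A/GCGTG next to target genes for blood vessel growth, glycolysis and mitochondrial turnover. Since HIF1A is set largely by protein stability, its transcript does not report the activity of the protein. In breast tumours this pathway is known for angiogenesis and for invasion, and several of its targets are also induced by starvation and other stress.

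The libraries were made from the human cell line SUM159, a mesenchymal triple-negative breast cancer line whose cells had been infected with the lentiviral ClonTracer barcode library. JQ1 (100 nM) blocks BET bromodomain proteins, palbociclib (160 nM) the kinases CDK4 and CDK6, and paclitaxel (0.6 nM) microtubule turnover, and the cultures were passaged in drug or in DMSO for up to 18 passages. There were 8 libraries. Pre-treatment cells were the parental barcoded cells, DMSO, paclitaxel, JQ1 (library JQ1-A) and JQ1+paclitaxel formed 1 experiment, and palbociclib, JQ1 (library JQ1-B) and JQ1+palbociclib formed another that had no vehicle library. Equal numbers of cells from triplicate cultures were pooled into each library, except that 1 of the JQ1+palbociclib cultures had died out. The cultures of a library could not be told apart, so only JQ1 alone had more than 1 library. All comparisons here are between cells that had lived through long exposure, not between acute responses.

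The libraries held 459 (DMSO) to 1024 (JQ1+palbociclib) cells and 10621159 (DMSO) to 24240835 (JQ1+palbociclib) unique molecular identifiers (UMIs, each 1 captured RNA molecule). Levels are given in CPM, the UMIs of a gene divided by the total of the library and scaled to a common total, and are compared between libraries, not between genes. The 95% intervals of single libraries are exact Poisson intervals and cover counting error only. As markers of SUM159, VIM ranged from 3279 to 4502 CPM. CD44 (at least 228 CPM), EGFR (at least 13.8 CPM) and AXL were present in every library. ESR1 and PGR did not pass 0.139 CPM, whereas ERBB2 was also present in every library (at least 5.32 CPM). The median share of mitochondrial UMIs in a cell was 3.72% to 5.58% without JQ1 and 4.69% to 7.18% with JQ1. There were 13 cell barcodes that occurred in more than 1 library, in 26 of 5738 cells.

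Promoter windows of 4 genes are shown, because 3 of them (EGLN3, ADM and EPAS1) carried the JQ1 results below and because BNIP3 held the largest number of HIF cores and ranged 1.49 times between its lowest and highest library. The RefSeq promoter table (GRCh38.p14) had 7 of the 10 genes, without VEGFA, STC1 and NDRG1. Each of the 7 windows matched GRCh37 exactly and at 1 place, and the 250 bases upstream of the start site are printed with their GRCh37 position, read 5′ to 3′ on the strand of the gene. Capitals mark the HIF cores ACGTG and GCGTG on either strand.
EGLN3, chr14:34420281-34420530, minus strand: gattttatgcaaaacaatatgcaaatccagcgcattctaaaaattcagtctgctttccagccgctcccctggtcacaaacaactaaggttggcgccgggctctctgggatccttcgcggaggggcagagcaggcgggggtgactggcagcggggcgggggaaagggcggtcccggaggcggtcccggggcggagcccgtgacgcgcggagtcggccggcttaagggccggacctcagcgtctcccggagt
ADM, chr11:10326370-10326619, plus strand: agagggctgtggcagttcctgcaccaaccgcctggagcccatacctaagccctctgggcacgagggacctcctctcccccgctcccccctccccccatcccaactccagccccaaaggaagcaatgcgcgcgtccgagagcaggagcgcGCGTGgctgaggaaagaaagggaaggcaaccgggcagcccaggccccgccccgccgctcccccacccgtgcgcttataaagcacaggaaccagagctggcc
EPAS1, chr2:46524296-46524545, plus strand: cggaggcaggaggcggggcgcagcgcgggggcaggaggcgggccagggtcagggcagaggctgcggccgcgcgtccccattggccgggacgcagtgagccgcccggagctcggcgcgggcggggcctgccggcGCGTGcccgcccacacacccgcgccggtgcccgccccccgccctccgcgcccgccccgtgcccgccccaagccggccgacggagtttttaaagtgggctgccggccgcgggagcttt
BNIP3, chr10:133795428-133795677, minus strand: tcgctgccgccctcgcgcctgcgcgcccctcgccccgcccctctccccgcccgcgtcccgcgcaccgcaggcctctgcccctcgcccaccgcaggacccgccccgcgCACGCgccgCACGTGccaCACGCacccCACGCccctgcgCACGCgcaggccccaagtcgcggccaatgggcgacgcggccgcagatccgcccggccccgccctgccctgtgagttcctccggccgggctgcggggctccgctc
The EGLN3 window held neither core, the ADM window a GCGTG that began 101 bases before the start site, and the EPAS1 window a GCGTG that began 117 bases before it. The BNIP3 window held 6 matches, 2 of ACGTG and 4 of GCGTG, beginning between 143 and 104 bases before the start site, of which the 2 ACGTG matches were the overlapping strands of a CACGTG palindrome. HIF1A had a GCGTG, P4HA1 an ACGTG and PDK1 neither. Among all 35116 windows of the table, 36.5% held GCGTG, 21.4% ACGTG and 48.4% at least 1 of both cores, beside 5 of the 7 genes here. A match describes these letters only. In GENCODE 44 on GRCh37 the 4 protein-coding genes span chr14:34393433-34931980 (EGLN3), chr11:10326620-10328944 (ADM), chr2:46520806-46613836 (EPAS1) and chr10:133781188-133795471 (BNIP3).

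To ask how each drug related to the 10 genes, the UMIs of a library were summed and fitted across all 9288 genes with edgeR's quasi-likelihood test, with an additive term for each drug (for JQ1 4 exposed and 4 unexposed libraries, for each partner drug 2 and 6) and Benjamini-Hochberg adjustment over all genes tested. A gene was called at an adjusted p under 0.05. Long exposure to JQ1 came with less EGLN3 and ADM and more EPAS1 transcript, and these 3 genes were called under all 16 alternatives tested. STC1 was also called with a small rise. The call was lost in 12 of the 16 alternatives, though their values stayed above 0, from 0.16 with library totals to 0.49 within the paclitaxel experiment. The other 6 genes, HIF1A among them, were not called. That made 4 of 10 genes, 2 higher and 2 lower, whereas 37.6% of all genes were called for JQ1, 17.8% higher and 19.7% lower, so the share called was close to that of all genes. The median log2 fold change was -0.01 over the 10 genes and -0.003 over all genes. Nothing in the labels shows that libraries of a drug came from separate replicate experiments except for JQ1 alone, and p-values measure the spread between these libraries.

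**Figure D1:**
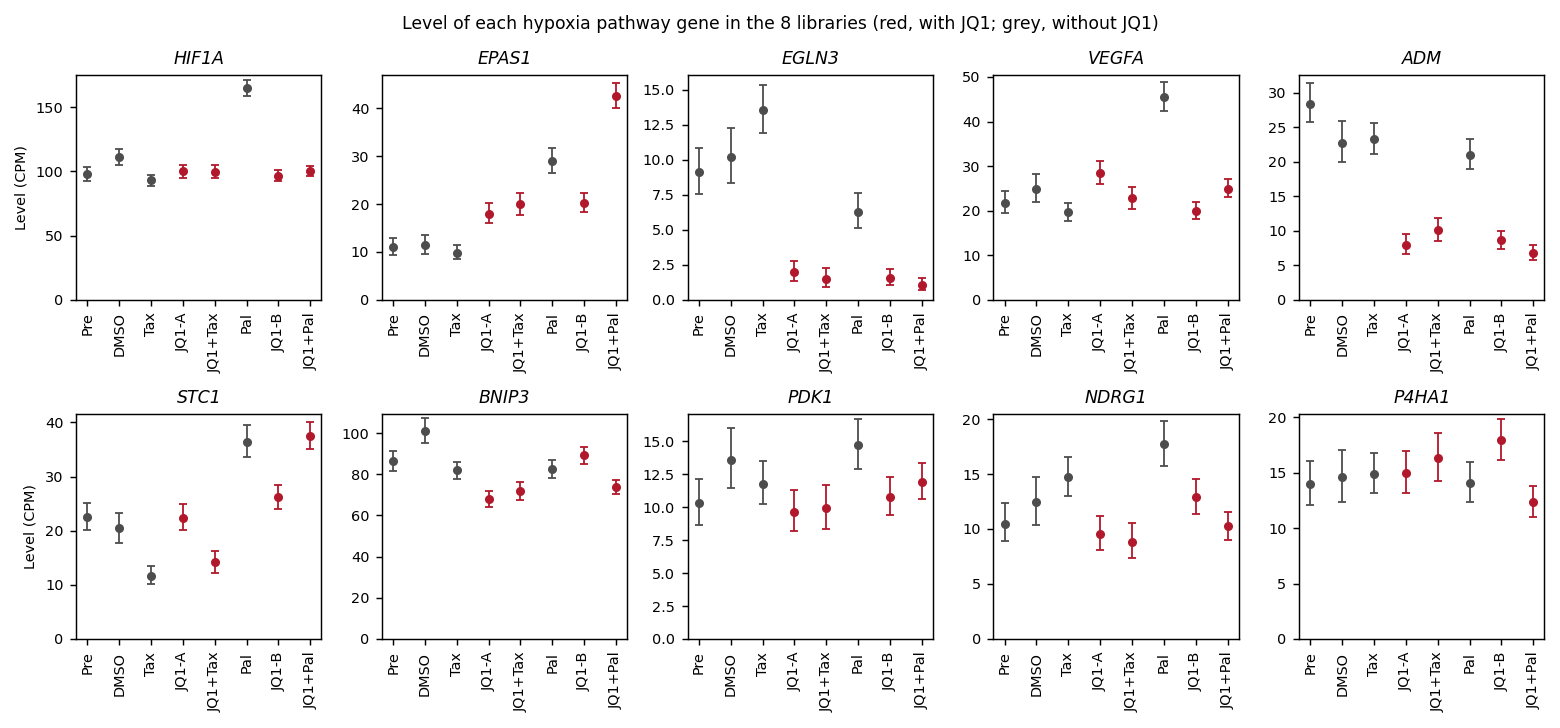
Level of each of the 10 genes (y axis, CPM, from 0, separate scale for each gene) in the 8 libraries (x axis: Pre, pre-treatment; Tax, paclitaxel; Pal, palbociclib; the others as in the text). Points are library levels and bars exact Poisson 95% intervals, with libraries grown in JQ1 in red. EGLN3 and ADM sat lower in all 4 JQ1 libraries, the highest EPAS1 level was in JQ1+palbociclib (42.6 CPM), and HIF1A, VEGFA, PDK1 and NDRG1 were highest in palbociclib.

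EGLN3, the oxygen-sensing prolyl hydroxylase that is itself a HIF target, had the largest change of the 10 genes under JQ1. Its level was 9.08 CPM in pre-treatment, 10.2 in DMSO, 13.5 in paclitaxel and 6.28 in palbociclib. With JQ1 it was 1.98 CPM in JQ1-A, 1.46 in JQ1+paclitaxel, 1.58 in JQ1-B and 1.03 in JQ1+palbociclib. The lowest library without JQ1 thus lay above the highest with JQ1, and the JQ1 levels rested on 21 to 32 UMIs each. EGLN3 passed the filter of at least 5 CPM in at least 2 libraries only through libraries without JQ1. Its fall and its gap are therefore not independent of that filter. The fitted log2 fold change was -2.46 ± 0.19 (SE, adjusted p = 0.000527), or 0.181 times the level without JQ1. Against the matched library of its own experiment, the ratio was 0.194 for JQ1-A over DMSO (95% counting interval 0.127 to 0.291), 0.108 for JQ1+paclitaxel over paclitaxel (0.0658 to 0.169) and 0.164 for JQ1+palbociclib over palbociclib (0.102 to 0.256). Among the JQ1 libraries, JQ1+palbociclib was 0.522 times JQ1-A (0.296 to 0.908), a ratio across experiments. Within its own experiment it was 0.654 times JQ1-B (0.372 to 1.14), an interval that included 1. Without JQ1, paclitaxel exceeded DMSO by a ratio of 1.33 (1.06 to 1.68) within its experiment. Palbociclib was below DMSO at 0.618 (0.467 to 0.816), again a ratio across experiments, in which drug and experiment cannot be told apart.

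ADM encodes adrenomedullin, a secreted vasodilator peptide that hypoxia induces in many cell types. It stood at 28.4 CPM in pre-treatment, 22.8 in DMSO, 23.3 in paclitaxel and 21.0 in palbociclib. In the JQ1 libraries it was 7.97 CPM (JQ1-A), 10.1 (JQ1+paclitaxel), 8.62 (JQ1-B) and 6.81 (JQ1+palbociclib). Here too no JQ1 library reached any library without JQ1. EGLN3 and ADM were the 2 of 10 genes whose JQ1 libraries did not overlap the others, and 28.2% of all genes showed such a gap. The log2 fold change of ADM was -1.33 ± 0.14 (adjusted p = 0.00104), and the matched ratios were 0.350 (0.280 to 0.435) over DMSO, 0.433 (0.356 to 0.525) over paclitaxel and 0.324 (0.267 to 0.391) over palbociclib.

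EPAS1, the other oxygen-regulated HIF subunit, was lowest in paclitaxel (9.79 CPM), pre-treatment (11.1) and DMSO (11.4). JQ1-A had 18.0 CPM, JQ1+paclitaxel 19.9 and JQ1-B 20.3, and the libraries with palbociclib followed at 29.1 alone and 42.6 together with JQ1. The first 3 of this order did not differ beyond counting error and neither did the next 3, whereas the steps to palbociclib and from there to JQ1+palbociclib did. The JQ1 and non-JQ1 libraries overlapped, as palbociclib alone was above 3 of the JQ1 libraries. The JQ1 term was 0.96 ± 0.13 on the log2 scale (adjusted p = 0.00195), and EPAS1 was higher with JQ1 in 3 of 3 matched pairs, by 1.58 times (1.27 to 1.97) over DMSO, 2.04 times (1.68 to 2.47) over paclitaxel and 1.47 times (1.31 to 1.64) over palbociclib.

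HIF1A encodes the subunit that gives the pathway its name. Its level was 97.9 CPM in pre-treatment, 111 in DMSO, 93.0 in paclitaxel, 100.1 in JQ1-A, 99.9 in JQ1+paclitaxel, 96.6 in JQ1-B and 100.0 in JQ1+palbociclib. Palbociclib alone stood apart from these 7 at 165 CPM. The JQ1 term was -0.00 ± 0.16 on the log2 scale (adjusted p = 0.991), with 99.2 ± 1.70 CPM (mean ± SD, n = 4 libraries) with JQ1 and 117 ± 33.1 CPM (n = 4) without, where the larger SD came from the palbociclib library. Without that library the fitted value was 0.25, still not called.

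The other secreted factors were less uniform. VEGFA, the main growth factor for blood vessels, had 21.8 CPM in pre-treatment, 24.95 in DMSO, 19.6 in paclitaxel, 28.4 in JQ1-A, 22.8 in JQ1+paclitaxel, 19.999 in JQ1-B and 24.9 in JQ1+palbociclib, against 45.6 CPM in palbociclib. Palbociclib was again the outlying library, and the JQ1 term was 0.05 ± 0.22 (adjusted p = 0.870). STC1, which encodes the glycoprotein hormone stanniocalcin 1, had 22.6 CPM in pre-treatment, 20.4 in DMSO, 11.7 in paclitaxel, 22.4 in JQ1-A, 14.2 in JQ1+paclitaxel, 36.4 in palbociclib, 26.2 in JQ1-B and 37.6 in JQ1+palbociclib. These levels sorted by partner drug more than by JQ1, with both paclitaxel libraries lowest and both palbociclib libraries highest. The JQ1 term of STC1 was 0.36 ± 0.11 (adjusted p = 0.0402). In CPM, the matched ratios of 1.10, 1.21 and 1.03 each had a counting interval that included 1. These ratios lack the scaling of the fit, described below, so the term and the ratios are not on the same scale.

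The mitochondrial and metabolic members, the collagen enzyme P4HA1 and NDRG1 ranged less widely across the libraries than EGLN3, ADM, EPAS1 and STC1. BNIP3, a mitophagy receptor on the outer mitochondrial membrane, ranged from 67.9 CPM in JQ1-A to 101 in DMSO, a ratio of 1.49 between highest and lowest library. GENCODE lists 44 BNIP3 pseudogenes, so its reads may be split by mapping. PDK1, the kinase that restrains pyruvate entry into mitochondria, ranged from 9.64 to 14.7 CPM, and P4HA1, a collagen prolyl hydroxylase subunit, from 12.3 to 17.9 CPM. NDRG1, a stress-responsive differentiation gene, varied more, from 8.86 CPM in JQ1+paclitaxel to 17.7 in palbociclib. None of these was called for JQ1, with log2 fold changes of -0.02 ± 0.11 for BNIP3 (adjusted p = 0.906), -0.05 ± 0.13 for PDK1 (0.766), -0.21 ± 0.19 for NDRG1 (0.424) and 0.28 ± 0.13 for P4HA1 (0.128). In CPM, NDRG1 with JQ1 was 0.771 times DMSO (0.607 to 0.980), 0.603 times paclitaxel (0.484 to 0.747) and 0.578 times palbociclib (0.486 to 0.687). The BNIP3 ratios were 0.672, 0.876 and 0.896, with every interval below 1. Those of PDK1 were 0.711, 0.841 and 0.812 and those of P4HA1 1.02, 1.09 and 0.876. The P4HA1 intervals all included 1, as did that of PDK1 over paclitaxel. These ratios lack the scaling of the fit, described below.

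CPM and the fitted values differ in their zero. Typical genes took a smaller part of the UMIs with JQ1, and with library totals in place of TMM factors the median of all genes shifted from -0.003 to -0.20 on the log2 scale. The calls for JQ1 were then 865 higher and 2912 lower (22.9% higher), in place of 1655 and 1833 (47.4% higher). Relative to the median gene, EGLN3 (-2.46), ADM (-1.32), EPAS1 (0.97) and STC1 (0.36) kept their values under library totals. Subtracting the shift of the median moves every gene alike, so this is not particular to them. Without that subtraction STC1 was at 0.16 and lost its call by edgeR (adjusted p = 0.266).

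Other properties moved with JQ1. By the S and G2/M gene scores of Seurat, called across all libraries, the share of cells in G1 was 39.2% to 46.5% with JQ1 and 1.91% (paclitaxel), 16.0% (pre-treatment), 16.9% (DMSO) and 56.9% (palbociclib) without. With each library scored by itself it was 37.2% to 46.5% with JQ1 and 11.9% (paclitaxel), 13.7% (pre-treatment), 17.8% (DMSO) and 40.5% (palbociclib) without, so that palbociclib then fell within the JQ1 range. In S and G2/M cells only, an alternative chosen after seeing the data, the JQ1 terms were -2.42 for EGLN3, -1.28 for ADM and 0.82 for EPAS1, all called, and 0.18 for STC1 (adjusted p = 0.219). Of 6 markers of other cell types, PTPRC, LUM and DCN had a row, and PTPRC and LUM did not pass 0.471 CPM. Their sum, nearly all DCN, was 8.29 to 34.4 CPM without JQ1 and 1.07 to 2.47 CPM with JQ1, and its part in these results was not tested.

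**Figure D2:**
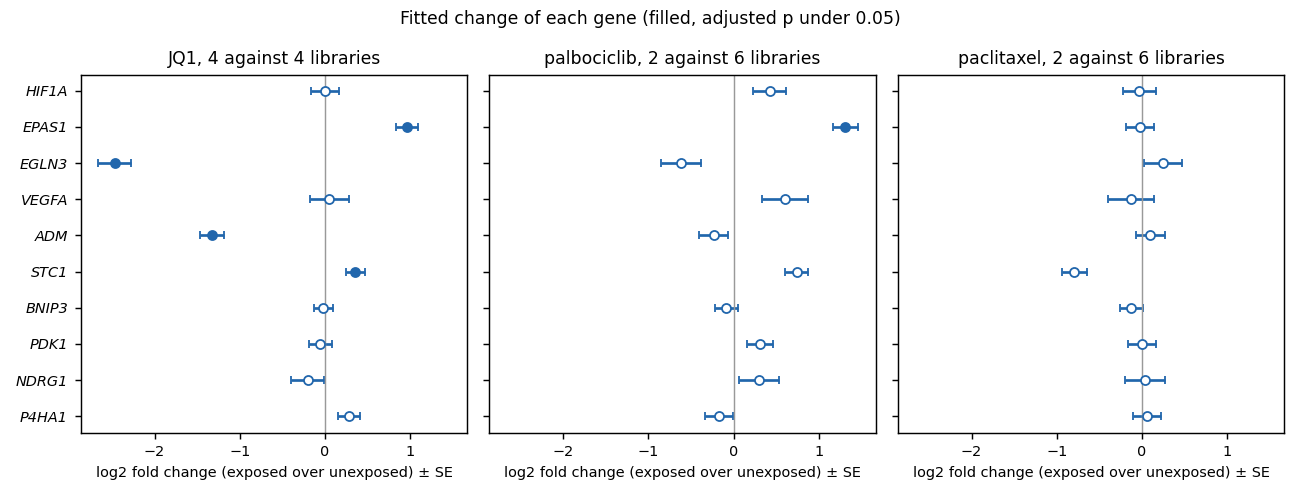
Fitted log2 fold change (x axis) of each of the 10 genes (y axis) for JQ1, palbociclib and paclitaxel exposure. Points are edgeR estimates with bars of ± 1 SE, filled where the adjusted p was under 0.05. Filled points are EPAS1, EGLN3, ADM and STC1 for JQ1 and EPAS1 for palbociclib.

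For palbociclib, EPAS1 was the gene that rose. Its 2 palbociclib libraries (29.1 and 42.6 CPM) lay above the 6 others (at most 20.3 CPM), and the log2 fold change was 1.31 ± 0.15 (adjusted p = 0.0290). It was 1 of 10 genes called, whereas 0.28% of all genes were called and 0.205% called higher. The call was lost without pre-treatment, DMSO, JQ1-A, JQ1-B or palbociclib, with values of 1.06 to 1.35, and with a term for the experiment (1.21, adjusted p = 0.898). Since the palbociclib experiment had no vehicle library, palbociclib and experiment are compared only through JQ1-A and JQ1-B, in which EPAS1 differed by a ratio of 1.13 (0.969 to 1.32).

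STC1 was also higher in both palbociclib libraries (36.4 and 37.6 CPM) than in any other (at most 26.2 CPM), with a log2 fold change of 0.74 ± 0.14 that missed the threshold (adjusted p = 0.0712). Between the experiments, STC1 in JQ1-B was 1.17 times JQ1-A (1.02 to 1.34), a difference in the same direction. Within the palbociclib experiment, JQ1+palbociclib was 1.44 times JQ1-B (1.29 to 1.60). The ratio of JQ1-B to JQ1-A was 0.704 (0.614 to 0.806) for VEGFA and 0.965 (0.904 to 1.03) for HIF1A. EPAS1 and STC1 were the 2 of 10 genes whose palbociclib libraries did not overlap the others, as for 14.4% of all genes. The values for VEGFA (0.60 ± 0.27, adjusted p = 0.229), HIF1A (0.42 ± 0.19, 0.243), PDK1 (0.31 ± 0.16, 0.281) and EGLN3 (-0.61 ± 0.24, 0.182) were not called. Without the palbociclib library the values were -0.04 for VEGFA and -0.06 for HIF1A, and without JQ1+palbociclib they were 1.14 (adjusted p = 0.0260) and 0.84 (0.0235), both called. The median log2 fold change was 0.30 over the 10 genes and 0.01 over all genes.

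No gene was called for paclitaxel by edgeR's quasi-likelihood test, 0 of 10 and 0.0% of all genes, with 1 of 10 and 395 of 9288 at an unadjusted p under 0.05. The 1 gene was STC1, whose paclitaxel libraries, at 11.7 and 14.2 CPM, lay below all others (at least 20.4 CPM), a gap that 4.22% of all genes showed. Its log2 fold change was -0.79 ± 0.15 (adjusted p = 0.885), and DESeq2, which called 9 genes, gave -0.80 (adjusted p = 0.0295). Within the experiment, STC1 in paclitaxel was 0.574 times DMSO (0.473 to 0.696) and in JQ1+paclitaxel 0.631 times JQ1-A (0.529 to 0.751). The other 9 genes had paclitaxel terms between -0.13 and 0.25.

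Whether the partner drug acted differently in the presence of JQ1 was tested with interaction terms. HIF1A, VEGFA and NDRG1 had their highest level in palbociclib alone, and in JQ1+palbociclib they were 0.606 (0.573 to 0.640), 0.546 (0.490 to 0.609) and 0.578 (0.486 to 0.687) times that level. PDK1 was also highest in palbociclib alone (14.7 CPM), and in JQ1+palbociclib it was 0.812 (0.682 to 0.967) times that level. The interaction of JQ1 and palbociclib was -0.81 ± 0.19 for HIF1A (adjusted p = 0.124), -1.10 ± 0.30 for VEGFA (0.157), -0.95 ± 0.30 for NDRG1 (0.180) and -0.58 ± 0.25 for P4HA1 (0.283). For PDK1 the same edgeR term was -0.27 ± 0.29 (adjusted p = 0.673). None of the 10 genes was called by edgeR (0.0108% of all genes were), although 4 of 10 and 1580 of 9288 had an unadjusted p under 0.05, and DESeq2 called 0 of the 5 genes to which it gave an adjusted p. For HIF1A, VEGFA and NDRG1 the terms were -0.73, -1.01 and -0.84 without pre-treatment, and -0.90, -1.195 and -1.07 without DMSO. Without JQ1-A they were -0.77, -0.82 and -1.13. Each of these refits had 1 residual degree of freedom, and whether genes were called depended on the library left out. Palbociclib alone had 1 library, and these terms rest on it.

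By comparison, the interaction of JQ1 and paclitaxel called 0 of 10 genes by edgeR, where 0.388% of all genes were called. At an unadjusted p under 0.05 it had 0 of 10 and 1577 of 9288 genes, and DESeq2 called 0 of 10. The lowest of these terms was that of EGLN3 (-0.72 ± 0.44, adjusted p = 0.433), and NDRG1 followed (-0.67 ± 0.31, 0.310).

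The rest of the pathway was read from lists of other genes. Of the 8 tested genes for oxygen sensing and HIF partners, 1 rose with JQ1, CITED2 (1.08 ± 0.22, adjusted p = 0.00801), a HIF target that competes with HIF for the coactivators EP300 and CREBBP. CITED2 had 33.2 to 54.1 CPM without and 67.8 to 104 CPM with JQ1. The prolyl hydroxylase EGLN2, the next most abundant of the list, ranged from 23.2 CPM in JQ1-A to 43.9 in paclitaxel and was not called, and the list median was 0.16. The list thus had 1 of 8 genes called, whereas 37.6% of all genes were called for JQ1. HIF3A and ARNT2 did not pass the filter on low counts, with at most 1.39 CPM.

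Of 19 tested genes for glucose uptake and glycolysis, 4 rose and 4 fell with JQ1, with a median of 0.05. The largest changes were in ENO2, the neuronal enolase (1.13 ± 0.21, adjusted p = 0.00587), PGK1, the first ATP-making enzyme of glycolysis (-0.89 ± 0.12, 0.00197), and PFKP, the platelet type phosphofructokinase (-0.62 ± 0.13, 0.00942). ENO2 passed the filter on low counts only through libraries with JQ1. PGK1 stood at 348 to 676 CPM without and 207 to 245 CPM with JQ1. Of 20 tested genes among other hypoxia targets, 4 rose and 3 fell, with a median of 0.02. The shares called in these lists, 8 of 19 and 7 of 20, were near the 37.6% of all genes called for JQ1. TMEM45A fell most (-1.81 ± 0.20, adjusted p = 0.00106), and BNIP3L, a mitophagy receptor related to BNIP3, rose (0.81 ± 0.22, 0.0231). TMEM45A passed the filter on low counts only through libraries without JQ1.

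Because several hypoxia genes also respond to amino acid shortage, targets of ATF4, the main transcription factor of that response, were counted beside them. Of 7 tested genes, which included ATF4 itself, 4 fell with JQ1, ATF4 among them, and 0 rose. Of all genes, 19.7% were called lower. The list median was -0.49 against -0.003 for all genes. TRIB3 (-1.15 ± 0.14, adjusted p = 0.00152), PSAT1 (-0.76 ± 0.16, 0.00891) and ASNS (-0.54 ± 0.16, 0.0299) fell most. For palbociclib and for paclitaxel edgeR called 0 genes in each of these 4 lists. With palbociclib, 0 of 8 sensor and partner genes, 8 of 19 glycolysis genes and 3 of 20 other targets had an unadjusted p under 0.05. So had 4 of 7 genes of the ATF4 list and 2056 of all 9288 genes.

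**Figure D3:**
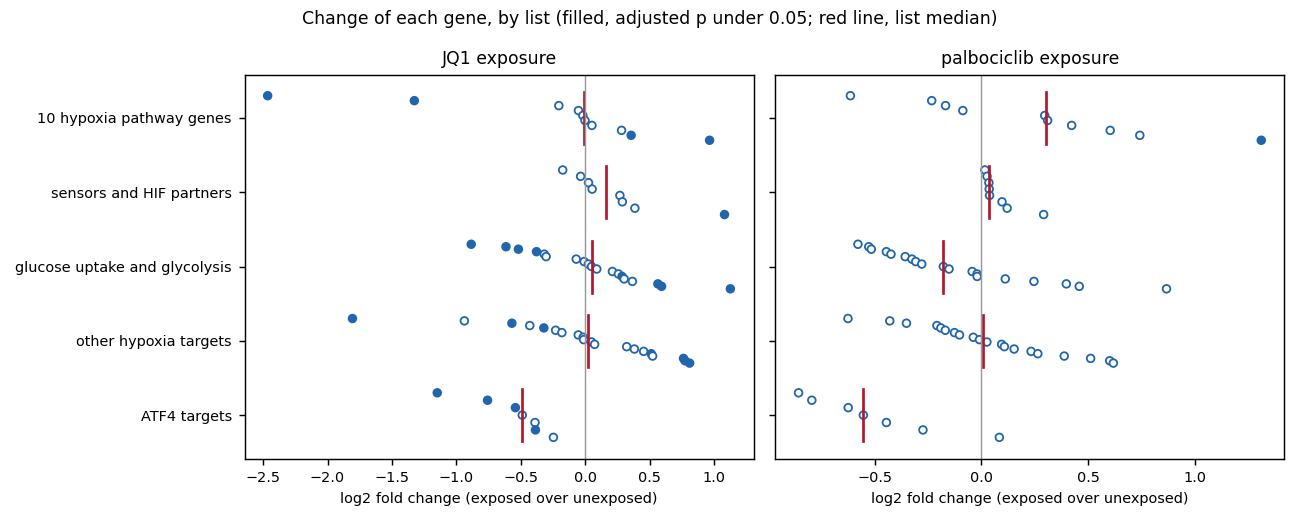
Log2 fold change (x axis) of every tested gene of the 10 hypoxia pathway genes and of 4 further lists (y axis) for JQ1 (left) and palbociclib (right). Points are genes, filled where the adjusted p was under 0.05, and red lines are list medians. With JQ1, called genes of the hypoxia and glycolysis lists lie on both sides of 0 and those of the ATF4 list below 0.

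To see whether the library levels reflected many cells or few, cells passing the filter of the study were thinned to 10000 UMIs each, which left 5487 cells. EGLN3 was seen in 5.74% (palbociclib) to 12.3% (paclitaxel) of cells without JQ1 and in 0.825% (JQ1+paclitaxel) to 2.31% (JQ1-A) with JQ1. With all UMIs of a cell these shares were 13.1% to 25.3% and 2.42% to 4.25%. ADM was seen in 17.1% to 19.1% of thinned cells without and 5.76% to 8.09% with JQ1 (with all UMIs, 31.9% to 34.6% and 13.0% to 15.2%). EPAS1 was seen in 9.43% of thinned cells in paclitaxel, 24.0% (exact 95% interval 20.8% to 27.5%) in palbociclib and 32.3% (29.4% to 35.3%) in JQ1+palbociclib (with all UMIs, 44.9% in palbociclib and 59.6% in JQ1+palbociclib). For EGLN3 and ADM no JQ1 library reached the share of any library without JQ1, and for EPAS1 the palbociclib library again exceeded 3 of the 4 JQ1 libraries.

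HIF1A was detected in 58.6% to 65.8% of thinned cells in 7 libraries and in 77.5% in palbociclib, and VEGFA in 15.8% to 23.7% and 37.2%, respectively. With all UMIs per cell, HIF1A reached 81.8% to 87.6% in the 7 and 94.2% in palbociclib, and VEGFA 34.5% to 44.01% and 60.9%. No cell type that lacks these genes was in the cultures, so the share owed to free RNA could not be measured. Shares of sparse genes follow the mean level, and fewer expressing cells could not be told apart from less RNA per cell.

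Spread between cells bore on this for ADM. If all cells of a library drew from the same level, the variance of thinned UMIs would be close to the mean, and the median ratio of variance to mean over 6642 genes was 1.06 to 1.07. EGLN3 lay between 0.978 and 1.17 in the 8 libraries, but was too sparse to be among those 6642 genes. In the JQ1 libraries no thinned cell had more than 1 EGLN3 UMI, which by itself holds the ratio just below 1. The EGLN3 ratio therefore cannot show how evenly its transcripts were spread there. ADM lay between 1.25 (JQ1-A and palbociclib) and 2.25 (pre-treatment), where single cells reached 9 UMIs, and the 90th percentile of all genes was 1.29 to 1.38. STC1 had ratios of 1.15 to 1.52, with up to 5 UMIs in a cell. The ADM ratio passed the 90th percentile of all genes in pre-treatment, paclitaxel, JQ1+paclitaxel and JQ1-B, but not in the others. For a given relative spread this ratio rises with the mean, which was highest in pre-treatment. With the variance beyond counting divided by the squared mean, ADM had 5.49 in JQ1-B, 4.83 in JQ1+paclitaxel, 4.39 in pre-treatment and 4.38 in JQ1+palbociclib. In the others this value was 1.17 (palbociclib) to 3.18 (JQ1-A). Uneven spread of ADM was thus not particular to pre-treatment.

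The 10 genes were hardly co-expressed from cell to cell. Within each library, Pearson's r of log-normalized thinned counts was taken for all 45 pairs and averaged over the 8 libraries, as a description, since cells of a library share depth and culture. The median of the 45 means was 0.0128 and none was above 0.1. The highest was 0.0545 for NDRG1 and P4HA1, which was above 0 in 8 of 8 libraries, followed by HIF1A with STC1 (0.0435) and HIF1A with VEGFA (0.0389). The lowest was -0.00678 for HIF1A and BNIP3. In counts this sparse r is held near 0 by sampling, and the values are given as a description only.

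**Figure D4:**
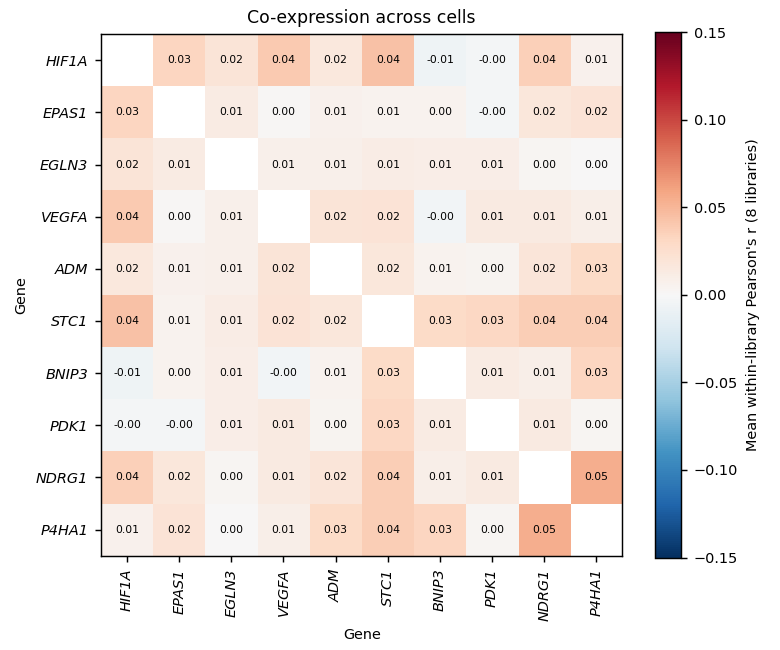
Mean of the within-library Pearson's r across cells (colour and printed value) for each pair of the 10 genes (both axes), over 8 libraries of thinned cells. All off-diagonal values lie between -0.01 and 0.05, close to the middle of a scale that runs from -0.15 to 0.15.

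Genes most like the summed level of the 8 members that are not HIF subunits were found among 6642 genes with at least 0.1 UMI per thinned cell. They were SH3BGRL3 (mean r = 0.108), S100A10 (0.103), TMSB4X (0.0965), ALDOA (0.0957), LDHA (0.0947), TIMP3 (0.0925), PRKCDBP (0.0883), S100A4 (0.0875), PGK1 (0.0873) and SERPINE2 (0.0868), each above 0 in 8 of 8 libraries. The 99th percentile of all genes was 0.0591. Of these 10, 3 (ALDOA, LDHA and PGK1) were glycolytic enzymes of the list above, and TMSB4X, S100A10 and S100A4 averaged 81.5, 22.0 and 16.6 UMIs per thinned cell. For BNIP3 by itself the nearest genes were LDHA (0.137), ALDOA (0.130) and TPI1 (0.123), all glycolytic, above a 99th percentile of 0.0672. BNIP3 had the highest mean CPM (81.8) of the 8 summed members, so its nearest genes are not independent of those of the sum.

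Across the 8 libraries, where each point is a culture pool and drugs are shared between points, the nearest of the 4433 genes that averaged 20 CPM or more were named by Pearson's r of log2(CPM + 1). For EGLN3 they were DNTTIP1 (0.998), NKAP (0.994) and TMEM165 (0.993), and for ADM LSM3 (0.990), MRPL23 (0.986) and UFC1 (0.986). For EPAS1 they were DDAH1 (0.982), ATP6V1A (0.981) and AGRN (0.977). For VEGFA they were TOMM7 (0.992), ODF2L (0.9497) and HIF1A (0.933), and ODF2L was also nearest to HIF1A (0.966). With 8 points and 4433 genes, values of this height describe the order of the libraries and no more.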

How the data were processed

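The authors deposited raw UMI counts for every gene in every cell, from 10x Genomics 3′ libraries processed with Cell Ranger and hg19 per the labels, and a second file with the library of each cell. Replicate cultures were pooled before capture. The UMIs of all 5738 cells were summed per library (10621159 to 24240835) and tested in R 4.3.3 with edgeR 4.0.16 (TMM, quasi-likelihood test, genes with at least 5 CPM in at least 2 libraries, 4 residual degrees of freedom, 2 with interactions). Standard errors were derived from F statistics and are approximate. The code was tested on simulated data. Cell-level values used cells inside the study's limits (mitochondrial share 1 to 15%, 2000 or more genes), thinned to 10000 UMIs (88 shallower cells left out), with scanpy 1.11.5, and Seurat 5.3.0 gene lists for phase. No doublet caller was run in this single line, and cells above the 95th percentile of UMIs were left out as a check. Alternatives were DESeq2 1.42.0, library totals, no filter, filtered cells, equal depth, leaving out each library, an experiment term and 1 experiment alone. The 10 genes, the lists and the alternatives were chosen with earlier results of these data known. From each list the 3 called genes with the largest change were named, or the 2 of highest mean level where fewer were called. A gene that this rule names is not reported here. Likeness named the 3 nearest genes per member across libraries and the 10 nearest to the summed targets across cells.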

Additional observations from a re-analysis of the deposited data

How the results depend on the processing

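EGLN3, ADM and EPAS1 kept direction and call for JQ1 under all 16 tested alternatives, with log2 fold changes of -2.66 to -2.32, -1.52 to -1.06 and 0.77 to 1.14. The number of the 10 genes called for JQ1 was 3 to 5, while all genes called numbered 463 with the experiment term and 1760 to 4190 with 1 library left out, against 3488. For palbociclib, in place of 1 of the 10 and 26 genes, DESeq2 called 2 and 515, no filter 2 and 205, S and G2/M cells only 2 and 96, the experiment term 0 and 0, and leaving out 1 library 0 to 4 and 0 to 938. For paclitaxel DESeq2 called 1 of the 10. The JQ1 by palbociclib interaction called 2 of the 10 with no filter (689 genes, against 1) and 0 to 3 with 1 library left out (0 to 1112 genes). DESeq2 called 34 genes there and 75 for JQ1 by paclitaxel (724 with no filter, 1 to 1141 with 1 library left out, against 36). The interactions could not be fitted without a library of the combination or of the partner drug.

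STC1 was called for JQ1 in 4 of 16 alternatives. Between JQ1-B with JQ1+palbociclib and palbociclib alone, a value without a test, it was -0.19, VEGFA -1.02 and EPAS1 0.11. Reversals otherwise concerned values that were not called, and their cause was not tested. For JQ1, HIF1A was 0.0012 with DESeq2, 0.0059 with no filter, 0.0038 at equal depth and 0.27 within the paclitaxel experiment, and VEGFA -0.14 with library totals, -0.0090 at equal depth and -0.11 in S and G2/M cells. For palbociclib NDRG1 was -0.21 with the experiment term. For paclitaxel HIF1A was 0.0089 and EPAS1 0.014 with no filter, EPAS1 0.0073 with the experiment term and 0.0096 in S and G2/M cells, NDRG1 -0.0056 at equal depth, and PDK1 -0.030 with library totals, -0.026 at equal depth and -0.055 with the experiment term.

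With 1 library left out, the JQ1 values ranged from -0.13 to 0.25 for HIF1A, -0.11 to 0.38 for VEGFA, -0.093 to 0.052 for BNIP3, -0.14 to 0.050 for PDK1 and -0.37 to 0.018 for NDRG1. The palbociclib values ranged from -0.064 to 0.84 for HIF1A, -0.041 to 1.14 for VEGFA, -0.084 to 0.65 for NDRG1 and -0.46 to 0.11 for P4HA1. The paclitaxel values ranged from -0.30 to 0.21 for HIF1A, -0.27 to 0.18 for EPAS1, -0.15 to 0.46 for EGLN3, -0.44 to 0.15 for VEGFA, -0.16 to 0.37 for ADM, -0.085 to 0.066 for PDK1, -0.14 to 0.20 for NDRG1 and -0.032 to 0.14 for P4HA1. Where leaving out a library left a drug with 1 library, that library was assumed to vary like the others. No paired analysis was possible by replicate number because the labels give no shared ones, and the experiment term stands for the pairing by experiment. EGLN3 with JQ1 rests on 21 to 32 UMIs per library.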

Other observations

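Levels by cell cycle phase were compared within each library as a description, from cells thinned to 10000 UMIs and called G1, S or G2/M by gene scores. STC1 was higher in G1 than in G2/M cells in 8 of 8 libraries, by a median ratio of 1.60 (1.22 to 2.03), and by 1.71 when each library was scored by itself. In the first scoring the counting interval included 1 in paclitaxel, JQ1-A, JQ1+paclitaxel and JQ1-B. Paclitaxel had only 14 G1 cells there. P4HA1 was lower in G1 than in G2/M cells in 7 of 8 libraries, with a median ratio of 0.782. Its counting interval excluded 1 only in JQ1+palbociclib (0.418 to 0.990). The other 8 genes had median ratios between 0.777 (PDK1) and 1.22 (EGLN3). In the palbociclib library, HIF1A was at 173 CPM in G1, 156 in S and 168 in G2/M cells, above the level of every other library in each phase, and VEGFA was at 46.4, 43.2 and 55.1 CPM.

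Across cells, the genes nearest to STC1 were IL8 (mean r = 0.112), IER3 (0.108) and SH3BGRL3 (0.105), against a 99th percentile of 0.0557 over all genes. IL8 encodes an inflammatory chemokine and IER3 an immediate early response gene. IER3 was also second nearest to VEGFA (0.0772), after COL6A3 (0.0796). CA9, a carbonic anhydrase often read as a marker of hypoxia, did not pass the filter on low counts. It was highest in DMSO at 9.32 CPM, had 2.20 in pre-treatment, 4.40 in paclitaxel and 3.69 in palbociclib, and lay between 0.413 and 1.32 CPM in the 4 JQ1 libraries. KDM3A, another listed target below the filter, went the other way, with 3.20 to 4.65 CPM without and 4.18 to 6.39 CPM with JQ1. Neither gene was tested, and both are named outside the rule for the lists.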
